A study of Mus musculus with 24 samples.

Results

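The 7 microRNAs (miRNAs) described here are the mouse mature arms mmu-miR-142a-3p, mmu-miR-142a-5p, mmu-miR-150-5p, mmu-miR-150-3p, mmu-miR-155-5p, mmu-miR-342-3p and mmu-miR-342-5p (written below without the species prefix), which are made from 4 precursor genes. They were taken by name from a count table of 1907 mature miRNA names, and all 7 were among the 558 miRNAs that passed the filter on low counts. The libraries were small RNA libraries of mouse subcutaneous adipose tissue, a white fat. The mice ate a high-fat or a control diet, tissue was taken after 1 day, after 1 week or after 3 weeks, and each of the 6 diet and time groups held 4 libraries, 24 in all. The title of the series concerns lower DICER, the enzyme that cuts miRNA precursors into mature arms, in fat during high-fat feeding. No genetic change or other agent is named for any group. The labels used here give no strain, sex, age, diet composition, fat depot or handling of lymph nodes, and they do not say whether each library is a different animal. All p-values therefore rest on the scatter of these libraries, part or all of which may be technical.

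These miRNAs are known from blood cells. miR-142 is made in nearly all cells of the haematopoietic lineage and miR-150 is high in mature, resting B and T lymphocytes, where the transcription factor gene Myb is a known target. miR-155 is cut from the noncoding transcript Mir155hg (also called Bic), which is induced when lymphocytes and macrophages are activated, and miR-342 lies within Evl, a regulator of the actin cytoskeleton. Adipocytes are not known as their main source, and in whole fat they are usually read as leukocyte miRNAs. In such bulk samples, fewer cells of a type and less of the miRNA per cell cannot be told apart.

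The mature sequences show which arms share a target seed, and they are given 5′ to 3′ with the seed, bases 2 to 8, in capitals (RefSeq, GRCm38.p6).
miR-142a-3p: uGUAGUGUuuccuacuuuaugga
miR-142a-5p: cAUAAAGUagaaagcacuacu
miR-150-3p: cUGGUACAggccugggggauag
miR-155-5p: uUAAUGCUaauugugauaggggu
miR-342-3p: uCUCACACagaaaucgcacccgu
miR-342-5p: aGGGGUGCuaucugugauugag
These 6 of the 7 arms matched an entry, and miR-150-5p did not. The 6 seeds all differed, and none was found in another of the 1679 mature names searched. No grouping of these arms by seed is therefore possible.

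Of the 4 hairpins, 3 matched an entry. They show which arms come from the same precursor molecule, with the mature arms in capitals and the loop and ends in lower case.
Mir142: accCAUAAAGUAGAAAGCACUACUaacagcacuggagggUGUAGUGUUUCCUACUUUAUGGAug
Mir155: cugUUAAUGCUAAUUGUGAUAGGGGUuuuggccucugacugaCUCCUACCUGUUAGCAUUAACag
Mir342: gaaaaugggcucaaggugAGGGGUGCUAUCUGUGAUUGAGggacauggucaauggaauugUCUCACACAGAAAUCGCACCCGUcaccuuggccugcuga
The 4 genes lie on 4 chromosomes, all on the plus strand (GRCm38, the assembly called mm10, GENCODE M21). Mir142 is at chr11:87756864-87756927 in an intron of the lincRNA Mir142hg. Mir150 is at chr7:45121757-45121821 and has no annotated host gene on the same strand. Mir155 is at chr16:84714140-84714204 in an exon of the lincRNA Mir155hg, and Mir342 is at chr12:108658620-108658718 in an intron of the protein-coding gene Evl. The antisense miR-142b overlaps 20 bases of miR-142a-3p. It was listed at 0 counts in all 24 libraries, and whether the counting used strand is not given in the sources used here.

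Total miRNA counts per library ran from 1.99 to 16.3 M (M, mega), with a median of 5.30 M. At day 1 they were 5.36 to 11.3 M on the control diet and 1.99 to 5.28 M on the high-fat diet. At week 1 they were 5.32 to 16.3 M and 2.54 to 4.15 M, so depth was lower with high-fat feeding without overlap at both times. At week 3 the diets overlapped in depth. Whether depth has a part in the diet values was not tested. Levels are CPM, counts per M after TMM scaling (edgeR's correction for composition), and 3 counts corresponded to 0.186 to 1.48 CPM. The miRNAs of skeletal muscle, which is not part of fat, varied widely, from 24.2 to 80986 summed CPM. By mean log2 CPM they were highest in replicate 2 of high-fat week 1, replicate 4 of control week 1 and replicate 4 of high-fat week 3. Adipocyte miRNAs were present throughout: miR-148a-3p, enriched in adipocytes, was at 106890 to 266607 CPM.

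A set of 3 libraries stood apart in the miRNAs described here and enter every comparison that involves high-fat week 1 or control week 3. These were replicates 1 and 3 of high-fat week 1 and replicate 1 of control week 3. They were the 3 lowest libraries for 6 of the 7 arms. For miR-342-5p the lowest was replicate 4 of control week 1. The 7 arms summed to 3090 to 3484 CPM in the 3 libraries and to 8533 to 43492 CPM in the other 21. In depth they lay within the range of the others, at 3.43 to 4.86 M counts against 1.99 to 16.3 M. Those comparisons are given with and without them. The choice was made after the values were seen and by the measure compared, so the values without them are a description.

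miR-142a-3p, from the haematopoietic miR-142 gene, had a mean of 7675 CPM over the 24 libraries and ranked 22 of the 558 by level. At day 1 its CPM in replicates 1 to 4 was 11543, 6154, 13672 and 6467 on the control diet and 10258, 6747, 18618 and 10774 on the high-fat diet. At week 1 it was 11428, 14888, 8692 and 2806 on the control diet and 1109, 6197, 1132 and 3894 on the high-fat diet. The diets overlapped at both times, but at week 1 the control library of replicate 4 alone reached down into the high-fat range. At week 3 the values were 1048, 8692, 8705 and 7057 on the control diet and 5937, 7105, 4550 and 6722 on the high-fat diet. There the high-fat libraries lay within the control range, which was wide because of its single low library.

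The other arm of the same hairpin, miR-142a-5p, had a mean of 8323 CPM. Its CPM at day 1 was 13912, 3495, 9665 and 2747 on the control diet and 12872, 7401, 16682 and 13490 on the high-fat diet. At week 1 it was 12594, 16533, 11077 and 3304 on the control diet and 1023, 6361, 1172 and 5741 on the high-fat diet. Both control replicates 2 and 4 were low at day 1, and replicates 1 and 3 were again the low pair of high-fat week 1. At week 3 it was 1113, 12188, 12006 and 4484 on the control diet and 10026, 9575, 3535 and 8766 on the high-fat diet, again with overlap.

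miR-150-5p, the main arm of the lymphocyte miRNA miR-150, had a mean of 4325 CPM. Its CPM at day 1 was 6106, 3126, 4022 and 2150 on the control diet and 5326, 3521, 6354 and 6973 on the high-fat diet. At week 1 it was 6626, 8410, 6097 and 1957 on the control diet and 675, 3419, 694 and 3136 on the high-fat diet. As with miR-142a, 3 control libraries lay above all high-fat libraries at week 1 and the remaining one lay among them. At week 3 it was 1034, 6085, 7723 and 2927 on the control diet and 4384, 5445, 3428 and 4175 on the high-fat diet, where the high-fat libraries were close together and inside the control range. The minor arm miR-150-3p had a mean of 66.8 CPM and ranged from 12.0 CPM in replicate 1 of high-fat week 1 to 136 CPM in replicate 2 of control week 1.

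miR-155-5p, the activation-induced miRNA, had a mean of 542 CPM. Its CPM at day 1 was 835, 455, 750 and 333 on the control diet and 677, 445, 1080 and 770 on the high-fat diet. At week 1 it was 892, 1143, 491 and 196 on the control diet and 108, 478, 81.1 and 299 on the high-fat diet. The order of libraries at week 1 was close to that of miR-142a, with the same low pair. At week 3 it was 117, 710, 746 and 377 on the control diet and 548, 554, 189 and 724 on the high-fat diet. The opposite arm miR-155-3p is no more than a trace here, at 2 to 43 counts per library.

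miR-342-3p, the main arm of the Evl intron miRNA, had a mean of 411 CPM and the narrowest range of the 7, with a highest library 4.90-fold above the lowest. Its CPM at day 1 was 534, 345, 423 and 286 on the control diet and 518, 337, 590 and 621 on the high-fat diet. At week 1 it was 671, 670, 435 and 230 on the control diet and 141, 327, 174 and 299 on the high-fat diet. Again 3 control libraries lay above every high-fat library at week 1. At week 3 it was 137, 601, 577 and 309 on the control diet and 435, 485, 240 and 481 on the high-fat diet. The minor arm miR-342-5p had a mean of 53.6 CPM and ranged from 14.6 CPM in replicate 4 of control week 1 to 104 CPM in replicate 3 of control week 3.

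**Figure D1:**
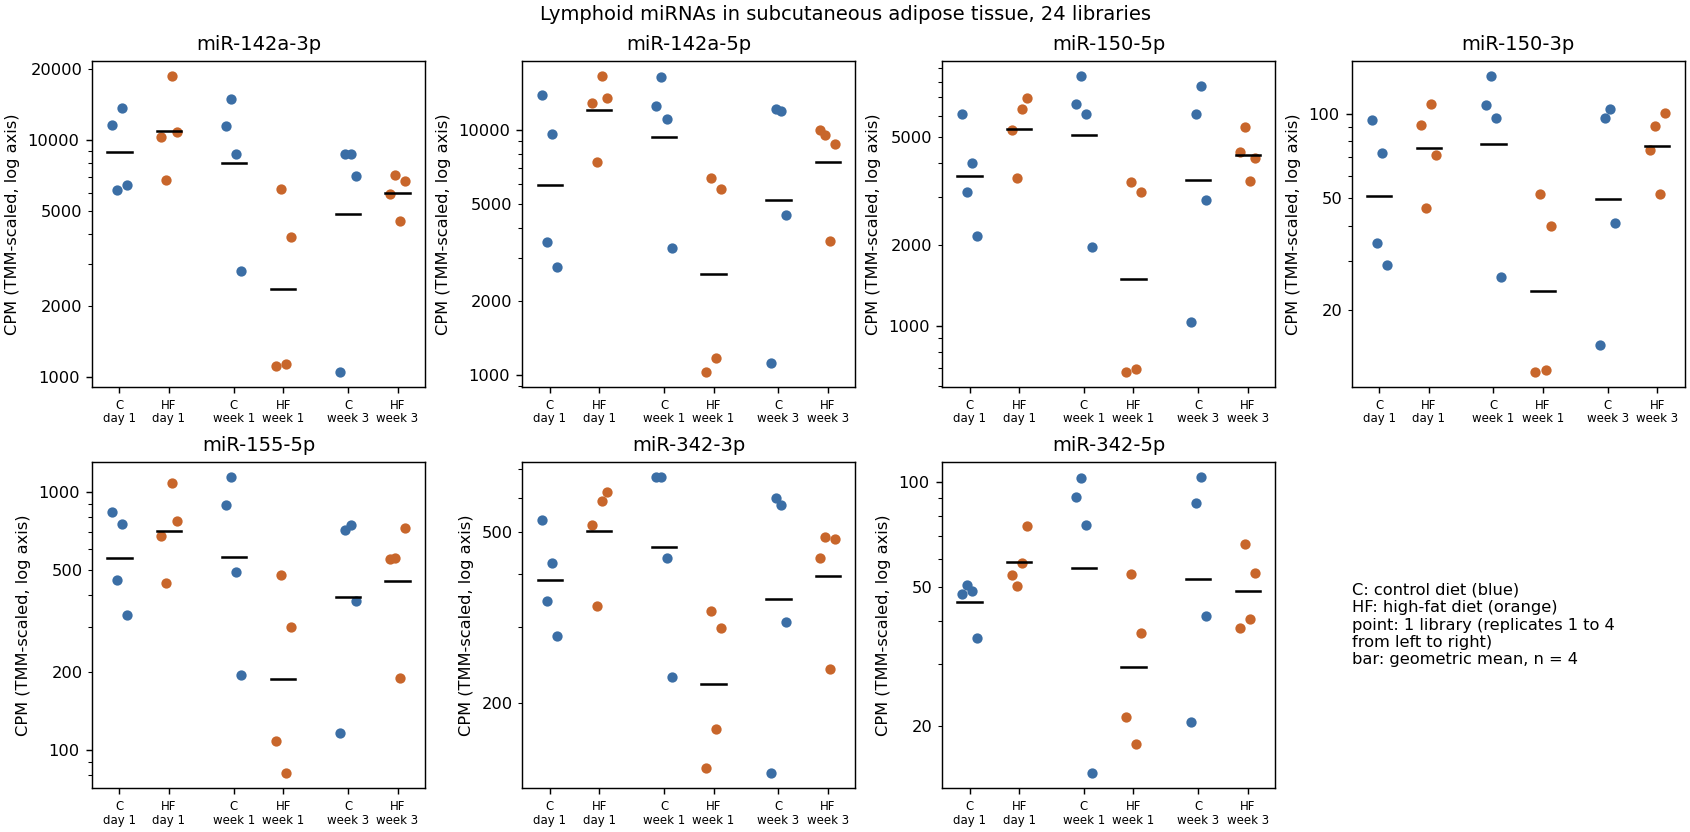
CPM of each of the 7 arms (log axis, 1 panel per arm) in the 4 libraries of each diet and time group, blue for control (C) and orange for high-fat (HF), with the geometric mean as a bar. The 2 low points of high-fat week 1 and the low point of control week 3 are the same 3 libraries in every panel, and they are the lowest of all 24 except for miR-342-5p, whose lowest library is in control week 1.

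The group of high-fat week 1 had the lowest mean log2 CPM for all 7 arms. High-fat day 1 had the highest for 6 of the 7, the exception being miR-150-3p, which was highest in control week 1. With the 6 groups put in order for each arm, all 35 pairs of neighbouring groups overlapped, so no step in these orders exceeded the spread between libraries. The spread itself was large. The SD of log2 CPM within groups was 0.64 for miR-342-3p to 1.14 for miR-142a-5p, against a median of 0.44 over the 558 miRNAs. From 74.4% to 93.0% of the tested miRNAs had a smaller within-group SD than a given one of the 7 arms. Among the 359 miRNAs with a mean of at least 10 CPM, the median SD was 0.36 and that share was 85.2% to 96.7%. The scale of comparison between arms is CPM, which also depends on how well each sequence is ligated and amplified, so the difference of level between miR-142a and miR-155 is a difference of counts.

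After 1 week of feeding, all 7 arms had lower values on the high-fat than on the control diet, as did 51.4% of all tested miRNAs, and none passed the test. Mean miR-142a-3p was 9453 ± 5106 CPM (SD, n = 4) with control feeding and 3083 ± 2453 CPM (SD, n = 4) with high-fat feeding. Its log2 fold change was -1.62 ± 0.61 (SE), with an adjusted p of 0.225 by edgeR's quasi-likelihood test with Benjamini-Hochberg adjustment over the 558 miRNAs, which applies to all adjusted p-values of fold changes here unless another tool is named. For miR-142a-5p the log2 fold change was -1.61 ± 0.73 (adjusted p = 0.313). The lymphocyte arms miR-150-5p and miR-150-3p had log2 fold changes of -1.54 ± 0.58 and -1.66 ± 0.59, both with an adjusted p of 0.225. miR-155-5p had a value of -1.49 ± 0.62 (adjusted p = 0.275). The smallest differences were those of miR-342-3p at -1.09 ± 0.40 (adjusted p = 0.225) and miR-342-5p at -1.12 ± 0.48 (adjusted p = 0.275).

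No miRNA of the 558 was called at week 1 (0%) by edgeR. The unadjusted p was under 0.05 for all 7 arms and for 79 of all 558 (14.2%). In the lower direction it was 51 of 558 (9.14%). The median log2 fold change of the 7 was -1.54, against -0.02 over all tested miRNAs. The groups overlapped for all 7 arms, while 1.97% of tested miRNAs were lower without overlap. The arms covary across libraries, so 7 low values are not 7 separate observations.

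The week 1 difference rested in part on which libraries entered. Without the 3 libraries lowest in these arms, the log2 fold changes were -0.49 to -0.87 (unadjusted p 0.133 to 0.332, adjusted p 0.916, edgeR). limma-voom with quality weights, which gives less weight to libraries that deviate, called 5 of the 7 arms lower, with 17 of 558 called in all (3.05%). These were miR-142a-3p at -2.35, miR-150-5p and miR-150-3p both at -2.33, miR-342-3p at -1.34 and miR-342-5p at -1.52, all with an adjusted p of 0.0419. Without the 3 libraries highest in skeletal muscle miRNAs, edgeR also called 5 of the 7 lower, with 31 called in all (5.53%). Those were miR-142a-3p, miR-150-3p, miR-155-5p, miR-342-3p and miR-342-5p, at an adjusted p of 0.0482 each. That set held replicate 4 of control week 1, the lowest of its group in these arms (8533 summed CPM). It also held replicate 2 of high-fat week 1, the highest of its group (16887 summed CPM). Leaving both out widens the difference, with miR-142a-3p going from -1.62 to -2.50, so these calls are no separate evidence. Without replicate 4 of control week 1, 22 miRNAs were called (3.89%), among them miR-342-5p at -1.39 (adjusted p = 0.0496). DESeq2 called no miRNA at week 1. Leaving out 1 library at a time kept miR-142a-3p between -2.19 (without replicate 2 of high-fat week 1) and -1.20 (without replicate 2 of control week 1), with no call.

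After 1 day all 7 arms had higher values on the high-fat diet (48.4% of all tested) and after 3 weeks they were mixed, with no arm past the test at either time. At day 1 the log2 fold changes ran from 0.29 ± 0.60 for miR-142a-3p to 0.76 ± 0.71 for miR-142a-5p (adjusted p 0.982 for each, edgeR). The 95% intervals were wide, from -0.96 to 1.54 for miR-142a-3p, whose value was -0.0035 without replicate 3 of high-fat day 1. DESeq2 and limma-voom also called none at day 1, at week 3 or for the mean of the 3 times. No miRNA was called at day 1 (0%), and the unadjusted p was under 0.05 for none of the 7 and for 3.05% of all. At week 3 the log2 fold changes ran from -0.35 ± 0.47 for miR-342-5p to 0.30 ± 0.57 for miR-150-3p, with 4 arms higher and 3 lower (adjusted p 0.999 for each, edgeR). No miRNA was called at week 3 (0%), where 1.79% had an unadjusted p under 0.05, none of them among the 7. The sign at week 3 changed with the scaling, the filter or the tool for 5 of the arms, so no direction is given for them. Averaged over the 3 times, all 7 values were negative, as were 59.7% of all tested, from -0.23 to -0.46 (adjusted p 0.993, edgeR). No miRNA was called there (0%), and the unadjusted p was under 0.05 for none of the 7 and for 3.23% of all. With the 3 low libraries left out, these means were -0.029 to -0.25 and the week 3 values -0.56 to 0.060.

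**Figure D2:**
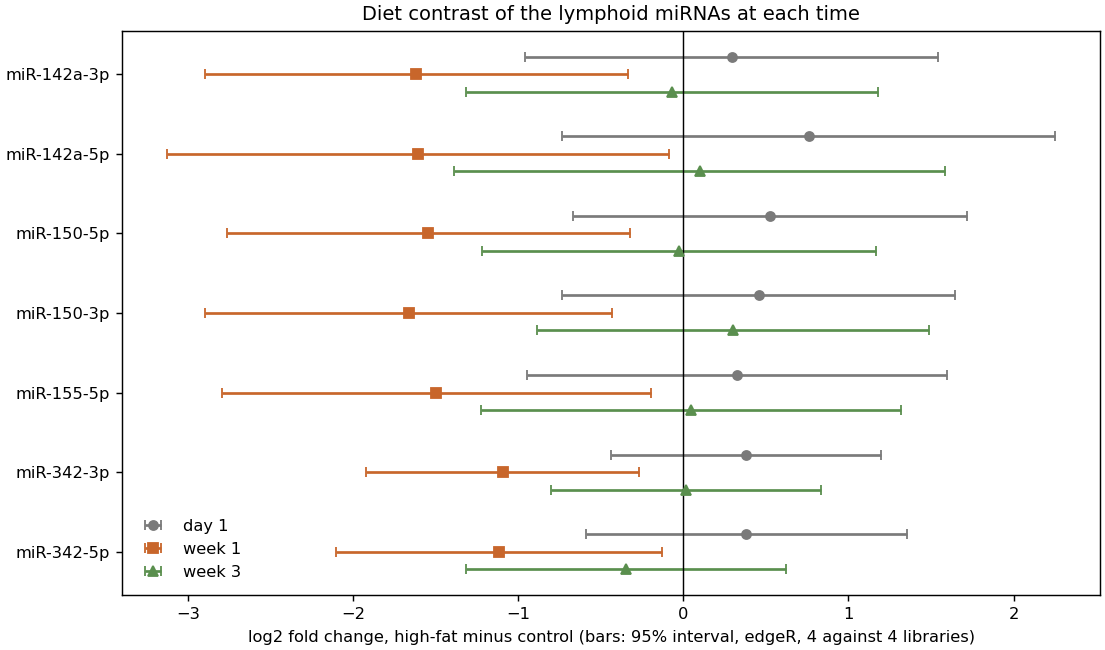
Log2 fold change, high-fat minus control, of the 7 arms at day 1, week 1 and week 3, with 95% intervals from edgeR (4 against 4 libraries). The week 1 intervals lie below 0 before adjustment, and those of day 1 and week 3 span 0.

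Whether the diet difference itself changed over time was tested with interaction terms, and none was called. The week 1 diet effect less the day 1 diet effect was negative for all 7 arms (49.3% of all tested), from -1.47 ± 0.56 for miR-342-3p to -2.36 ± 1.02 for miR-142a-5p. Adjusted p-values were 0.289 to 0.33 (edgeR; 0% of all miRNAs called). The unadjusted p was under 0.05 for all 7 and for 14.9% of all tested miRNAs. Leaving out the 3 low libraries, this difference was -0.93 to -1.53 (adjusted p 0.602 to 0.68, edgeR). From week 1 to week 3 the diet effect had a positive difference for all 7 (49.6% of all tested), from 0.77 ± 0.66 for miR-342-5p to 1.96 ± 0.82 for miR-150-3p. Adjusted p-values were 0.546 to 0.72 (edgeR; 0% called), and the unadjusted p was under 0.05 for 1 of the 7 and for 5.91% of all. Without the 3 low libraries it was -0.068 for miR-342-5p and 0.36 to 0.93 for the other 6, with miR-142a-3p going from 1.55 to 0.42. The joint test over the 3 times gave unadjusted p-values of 0.0312 for miR-150-3p to 0.104 for miR-155-5p and adjusted p-values of 0.567 to 0.602 (edgeR; 0% called). The unadjusted p was under 0.05 for 2 of the 7 and for 7.35% of all, and without the 3 low libraries the adjusted p-values were 0.895 to 0.903. DESeq2 and limma-voom called none in these 3 interaction tests either.

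On the high-fat diet alone, week 1 had lower values than day 1 for all 7 arms (43.7% of all tested), again without a call by edgeR. miR-142a-3p had a log2 fold change of -1.91 ± 0.62 (adjusted p = 0.128) between means of 3083 and 11599 CPM. miR-150-5p had -1.48 ± 0.58 (adjusted p = 0.158), miR-155-5p -1.62 ± 0.63 (adjusted p = 0.146) and miR-342-3p -1.14 ± 0.40 (adjusted p = 0.138). The smallest was miR-342-5p at -0.87 ± 0.48 (adjusted p = 0.293). None of the 558 was called (0%). The unadjusted p was under 0.05 for 6 of the 7 and for 20.6% of all (9.5% in the lower direction). For miR-142a-3p, miR-142a-5p, miR-150-5p and miR-342-3p every week 1 library lay below every day 1 library, which held for 5.73% of all tested miRNAs. These values share the high-fat week 1 libraries with the diet comparison at week 1 and are no separate evidence for it.

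The other 2 tools called most of the arms in that comparison. DESeq2 called 5 of the 7, with 32 called in all (12.5% of those it gave an adjusted p). Its adjusted p-values for miR-142a-3p and miR-150-5p were 0.0339 and 0.0495. The weighted limma-voom fit called 6 of the 7, with 44 called in all (7.89%). Without the 3 libraries lowest in the arms, edgeR gave log2 fold changes of -0.35 to -1.18 and adjusted p-values of 0.408 to 0.817. On the control diet, by contrast, the values for week 1 against day 1 ran from -0.00 for miR-142a-3p to 0.66 for miR-150-3p, none with an unadjusted p under 0.05 (13.6% of all tested). In that comparison 1 miRNA was called (0.179%), miR-322-5p, which is none of the 7 and was named after its value was seen. DESeq2 called 7 there and limma-voom 22, none of them among the 7 arms. The difference between the diets in this time course is the interaction given above, which was not called.

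From week 1 to week 3 the 7 arms had higher values on the high-fat diet (48.2% of all tested) and lower values on the control diet (57.5% of all tested), with no call in either (0%), nor by DESeq2 or limma-voom. On the high-fat diet the log2 fold changes were 0.61 ± 0.47 for miR-342-5p to 1.45 ± 0.59 for miR-150-3p (adjusted p 0.28 to 0.547, edgeR), with an unadjusted p under 0.05 for 1 of the 7 and for 14.3% of all. Without the 3 low libraries they were 0.079 for miR-342-5p to 0.75 for miR-150-3p, and miR-142a-3p went from 0.98 to 0.23 (none called). miR-150-5p and miR-150-3p were higher at week 3 without overlap between the groups, as were 2.51% of all tested miRNAs. On the control diet the values were -0.16 ± 0.46 for miR-342-5p to -0.57 ± 0.60 for miR-142a-3p (adjusted p 0.993, edgeR), none with an unadjusted p under 0.05 (2.33% of all). That comparison includes the low library of control week 3. Without the 3 low libraries the values were -0.19 for miR-142a-3p to 0.15 for miR-342-5p, with miR-342-3p at 0.00090.

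The 4 precursors, although on 4 chromosomes, had levels that tracked each other from library to library. Pearson's r of log2 CPM was taken after subtracting each group's mean, so that diet and time do not enter, for the 6 pairs of the lead arms miR-342-3p, miR-155-5p, miR-150-5p and miR-142a-3p over 24 libraries. It was 0.91 to 0.95, and Spearman's rho was 0.86 to 0.95. All 6 adjusted permutation p-values for r were 1e-05, the smallest that 100000 resamples within groups can give. Without the 2 libraries farthest from the median, r was 0.84 to 0.93, and without the 3 low libraries it was 0.84 to 0.96 (21 libraries). All points share the library's depth and scaling, and with library totals alone as the scaling r was 0.90 to 0.95.

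**Figure D3:**
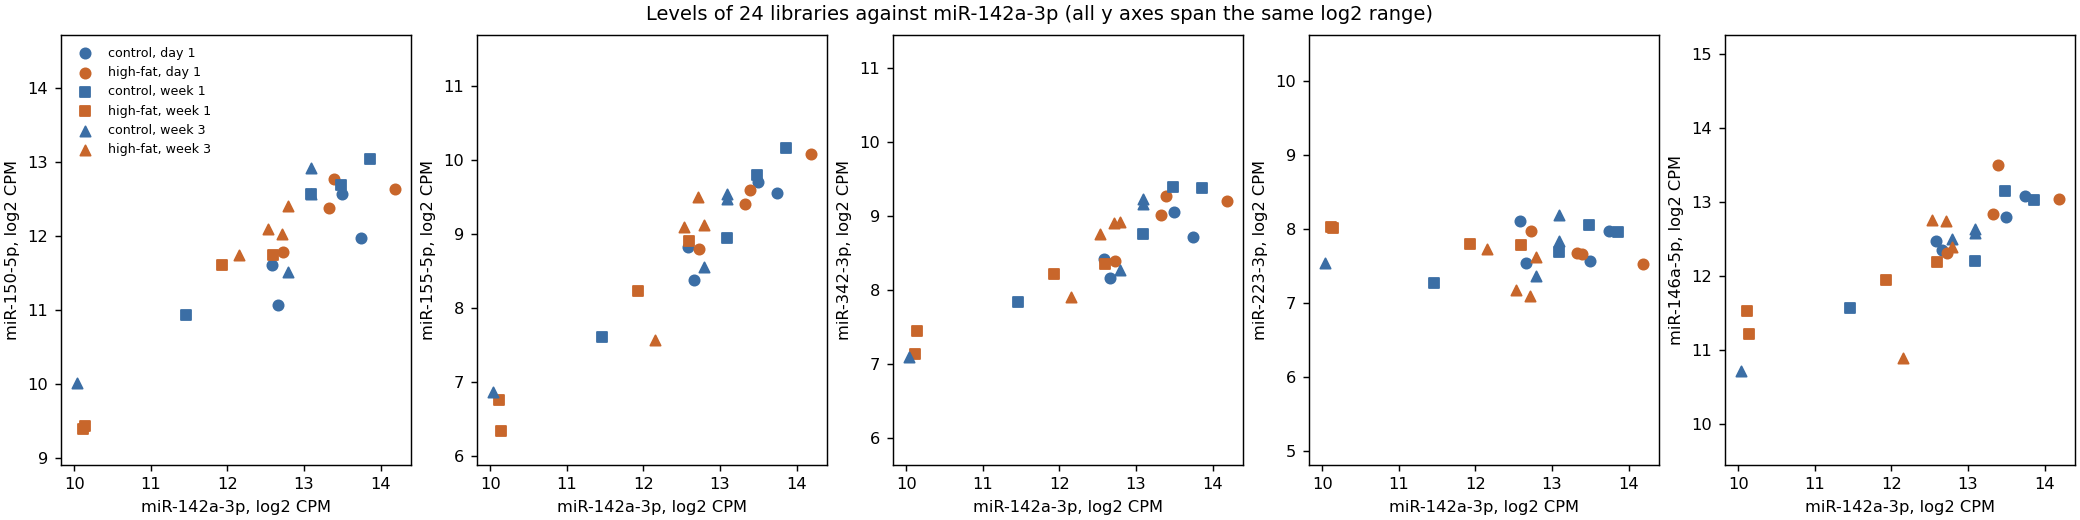
Log2 CPM of miR-150-5p, miR-155-5p, miR-342-3p and of 2 arms of the myeloid list, miR-223-3p and miR-146a-5p (y axes, same span) against miR-142a-3p (x axis) in 24 libraries, with colour for diet and symbol for time. The first 3 panels climb from the 3 low libraries, miR-146a-5p climbs with more scatter (centred correlation 0.81), and miR-223-3p is close to level (0.17).

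Ratios within a library do not depend on depth or scaling, and they compare arms of one hairpin directly. miR-142a gave its arms in near equal counts, with a median 3p to 5p ratio of 0.904 (0.592 to 2.35 over 24 libraries). miR-150 was strongly one-sided, with a 5p to 3p ratio of 63.7 (41.5 to 97.9). For miR-342 the 3p arm led the 5p arm by a ratio of 7.44 (5.57 to 15.7). The log2 ratio of miR-150-5p to miR-142a-3p spanned 1.75 over the libraries and that of miR-155-5p to miR-142a-3p spanned 1.42.

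None of 7 ratios at 3 times was called between diets. The test was an exact two-sided permutation test of 4 against 4 libraries, adjusted over the 21 tests. The smallest unadjusted p was 0.0571, the smallest this design allows is 0.0286, and the smallest adjusted p was 0.6. A single ratio at 0.0286 would not pass after this adjustment, so the lack of a call does not show that the ratios were equal. At day 1 the log2 ratio of miR-142a-3p to miR-142a-5p was 0.57 ± 0.64 (SD) on the control diet and -0.16 ± 0.23 (SD) on the high-fat diet (exact p = 0.0857). At week 3 the log2 ratio of miR-150-5p to miR-150-3p was 6.11 ± 0.10 (SD) on the control diet and 5.80 ± 0.29 (SD) on the high-fat diet (exact p = 0.0571). At week 1 all 3 arm ratios had a difference between diets of -0.12 to 0.09 on the log2 scale, while the levels of the arms differed by -1.09 to -1.66.

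**Figure D4:**
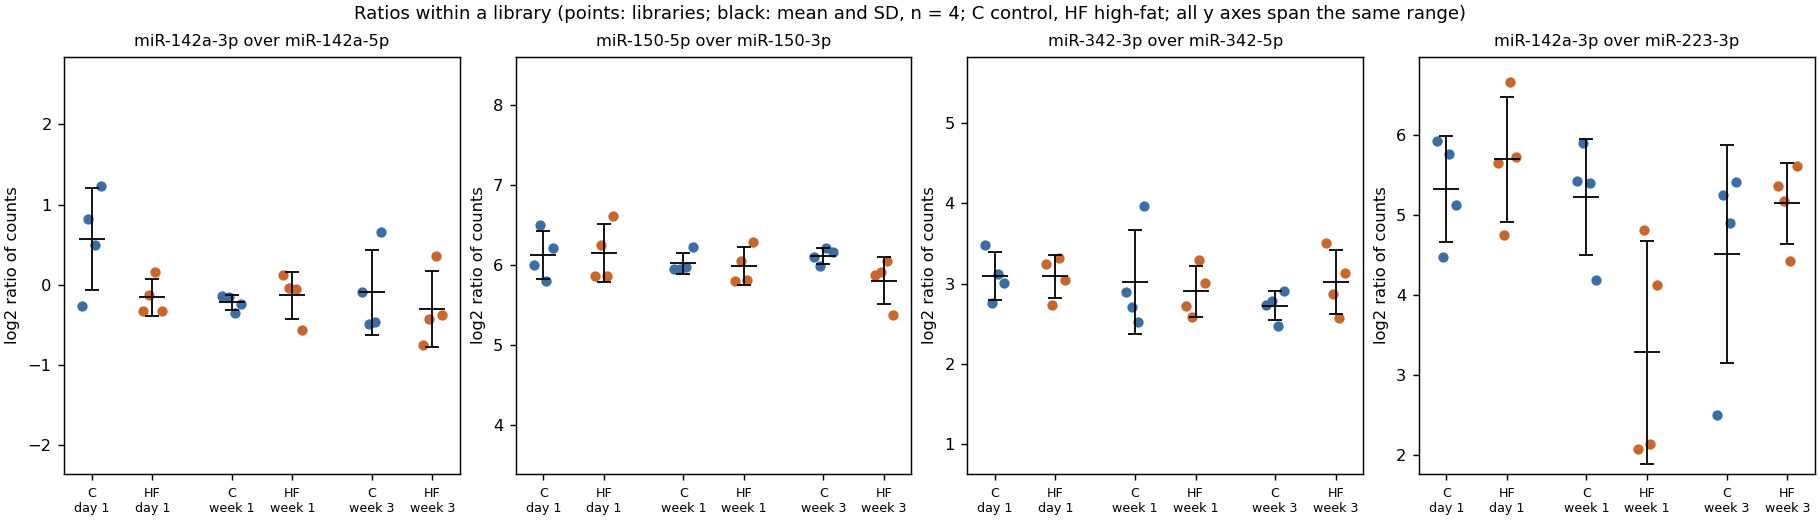
Log2 ratios of counts within a library for the arms of miR-142a, miR-150 and miR-342 and for miR-142a-3p over miR-223-3p, by diet and time (points, 1 library; black, mean and SD, n = 4). All axes span the same range. The arm ratios of the diets overlap at each time, and the last ratio reaches its lowest values, 2.08 and 2.14, in 2 libraries of high-fat week 1.

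The arms of the myeloid and macrophage list differed among themselves in how they followed miR-142a-3p, with group-centred correlations of -0.42 for miR-511-5p to 0.81 for miR-146a-5p and a median of 0.17. miR-223-3p, the miRNA of neutrophils and other myeloid cells, was at 186 to 262 CPM in the 3 low libraries and at 138 to 293 CPM in the other 21. Its correlation was 0.17 and that of its other arm miR-223-5p was 0.42. The log2 ratio of miR-142a-3p to miR-223-3p at week 1 was 5.22 ± 0.73 (SD) on the control diet and 3.29 ± 1.39 (SD) on the high-fat diet, a difference of -1.94 (exact p = 0.0571, adjusted p = 0.6). Without the 3 low libraries that difference was -0.76. Of 9 myeloid and macrophage arms tested, 5 were higher and 4 lower on the high-fat diet at week 1, none called, with a median log2 fold change of 0.01. miR-146a-5p, induced in activated myeloid and lymphoid cells, had a log2 fold change of -0.85 ± 0.42 (adjusted p = 0.353, edgeR). It was at 1691 to 2967 CPM in the 3 low libraries and at 1903 to 11587 CPM in the other 21 (median 6139 CPM). Its other arm miR-146a-3p, at a mean of 1.16 CPM, had a correlation of 0.65.

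Other miRNAs linked to lymphocytes, namely the miR-181 family, the miR-17 to miR-92a cluster, miR-29 and miR-28a, are also made in many other cells. At week 1, 3 of these 14 arms were higher and 11 lower on the high-fat diet, none called, with a median log2 fold change of -0.26 against -0.02 over all. miR-19a-3p at -0.81 ± 0.28 and miR-92a-3p at -0.64 ± 0.23 had the lowest values (adjusted p = 0.225 for both, edgeR). Over the 14 arms the group-centred correlations with miR-142a-3p ran from -0.37 to 0.90, with a median of 0.38. They were 0.90 for miR-19a-3p, the highest, 0.82 for miR-92a-3p and 0.18 for miR-181a-5p.

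Markers of other cells were also compared at week 1, none of them was called, and their part in the week 1 values was not tested. All 6 tested skeletal muscle arms had positive log2 fold changes at week 1 (median 0.56), and their summed level was 555 to 18760 CPM on the control diet and 135 to 80986 CPM on the high-fat diet. All 6 erythrocyte arms (median 0.34) and all 7 epithelial arms (median 0.38) also had positive values. The unadjusted p was under 0.05 for none of the muscle and erythrocyte arms and for 1 of the 7 epithelial arms. The epithelial sum was 12756 to 16413 CPM on the control diet and 8760 to 39049 CPM on the high-fat diet. In the 3 low libraries miR-205-5p, an epithelial miRNA of skin named for its value, was at 1184 to 6659 CPM. In the others it was at 622 to 3345 CPM, with a median of 1300 CPM. Of the 3 low libraries, only replicate 1 of high-fat week 1 was above the others in mean log2 CPM of the epithelial arms, at 11.94. Replicate 3 of that group, at 11.07, and replicate 1 of control week 3, at 10.57, lay within the 9.70 to 11.11 of the others. By mean log2 CPM the muscle arms were at 5.71 to 9.70 in these 3 libraries and at 0.94 to 11.2 in the others. Replicate 1 of control week 3 was at 9.70 and replicate 3 of high-fat week 1 at 9.33. The 3 libraries highest in muscle arms were at 9.78 to 11.2. miR-1a-3p alone was at 291 to 7720 CPM in the 3 low libraries and at 13.2 to 65013 CPM in the others. Endothelial miR-126a-3p and the 4 adipocyte arms were little different between diets, with a log2 fold change of 0.04 ± 0.15 and a median of -0.04. The listed arms miR-126a-5p and miR-486b-3p were at 0 counts in all 24 libraries.

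Likeness to the 4 lead arms was the group-centred Pearson correlation of log2 CPM over 24 libraries, given as a description, and the 5 most alike non-members of each made 9 miRNAs in all. Of these, 3 were common to all 4 lists. miR-20b-5p, miR-363-3p and miR-106a-5p, which lie in the miR-106a to miR-363 cluster, were among the 5 non-members most like each of the lead arms miR-342-3p, miR-155-5p, miR-150-5p and miR-142a-3p. Their correlations with miR-142a-3p were 0.96, 0.96 and 0.92, at mean levels of 70.8, 54.3 and 33.8 CPM. miR-211-5p and miR-467e-5p followed for miR-142a-3p at 0.91 and 0.90. For miR-150-5p, miR-467d-5p and miR-211-5p each had 0.95. For miR-155-5p, miR-130b-3p had 0.94 and miR-19a-3p 0.90, and for miR-342-3p, miR-92a-3p had 0.94 and miR-130b-3p 0.93. Reads of miR-20b and miR-106a can be hard to tell from those of their near copies in the miR-17 family, so their counts are uncertain. All 7 epithelial arms had negative correlations with miR-142a-3p (median -0.43), as did all 6 muscle arms (median -0.24). So did endothelial miR-126a-3p (-0.22) and all 4 adipocyte arms (median -0.11), and the erythrocyte arms ran from -0.41 to 0.10 (median -0.20). A negative sign was thus not particular to epithelium and muscle, and its share over all tested miRNAs was not taken.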

How the data were processed

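Total RNA (1 microgram) was made into small RNA libraries with the NEBNext kit, per the labels' protocols. The authors deposited raw read counts for 1907 mature miRNA names, with the arms counted separately. FastQC, Trim Galore, Bowtie2 and featureCounts with build mm10 were used, per the submitters' processing notes. Versions, strand setting and the treatment of multiply matching reads are unstated in the labels and notes used. Reads matching several genomic copies or near-identical miRNAs could be split or lost by that counting. The floor of 3 counts covers counting error only, and the 95% intervals are those of the edgeR fit over libraries.

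Names were filtered with filterByExpr (minimum count 10, minimum total 15; 558 kept). One model of the 6 groups was fitted to all 24 libraries with edgeR 4.0.16 (TMM, robust quasi-likelihood test) in R 4.3.3, and 11 contrasts were adjusted by Benjamini-Hochberg over the 558, with a threshold of 0.05. The scripts were tested on simulated data. Ratios used a pseudocount of 0.5 counts. Permutation tests used SciPy 1.17.1 in Python 3.11.15. No libraries of the same group matched within sampling noise (lowest chi-square per degree of freedom 82.2), and none was merged. Libraries of different groups were not compared in this way. Alternatives were other scalings and filters, DESeq2 1.42.0, limma-voom 3.58.1, a replicate block, only the groups compared, a ratio pseudocount of 1 and sets of libraries left out. The text names all 7 members, the 5 non-members most like each lead arm, and of each list its counts, its median and up to 3 abundant members; miR-19a-3p, miR-92a-3p and miR-205-5p were added for their values. Members and lists were chosen with earlier results of these data known.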

Additional observations from a re-analysis of the deposited data

Results flagged for a closer look

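In 84 groups of 4 libraries (42 of arm levels, 42 of ratios) the highest or lowest library was compared with the others, and 6 stood apart by a gap of over 0.829 of the group's range; chance flags about 1 in 20 groups. Replicate 1 of control week 3 was low for miR-142a-3p, at a log2 CPM of 10.03 against 12.78 to 13.09 in the other 3. Replicate 3 of high-fat week 3 was low for miR-142a-5p, at 11.79 against 13.10 to 13.29, and for miR-342-3p, at 7.91 against 8.77 to 8.92. Replicate 4 of control day 1 was low for miR-342-5p, at 5.16 against 5.58 to 5.67. Replicate 4 of control week 1 was low for miR-342-5p, at 3.87 against 6.24 to 6.68. The same library was high in the log2 ratio of miR-150-5p to miR-150-3p, at 6.22 against 5.95 to 5.98. The pair of low libraries in high-fat week 1 was not singled out in this way, because 2 low libraries of 4 leave no single gap.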

How the results depend on the processing

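At week 1 the 7 arms were lower on the high-fat diet under every alternative run. miRNAs called numbered 0 by edgeR, 17 by limma-voom with quality weights, 31 without the 3 libraries highest in skeletal muscle miRNAs, and 0 to 22 with 1 library left out; the cause was not tested. The mean over times gave 0 to 2 with 1 library left out. For week 1 against day 1 on the control diet the count was 1, and it was 0 with no filter on low counts or with only the groups compared, 7 by DESeq2, 22 by limma-voom, 2 with the replicate block, 2 without the muscle-high libraries and 0 to 13 with 1 library left out. For the high-fat diet it was 0, and 32 by DESeq2, 44 by limma-voom, 9 without the muscle-high libraries and 0 to 4 with 1 library left out. Group-centred correlations of same-numbered libraries were -0.587 to 0.542, with 21 of 60 above 0.1. Between the diets they were 0.071 to 0.378 at day 1, -0.498 to 0.400 at week 1 and -0.315 to 0.355 at week 3. Libraries of different numbers were not compared, so these values cannot decide whether replicate numbers pair the samples. With the replicate block, miR-142a-3p at week 1 had -1.68 (adjusted p = 0.303, edgeR) and none of the 7 was called.

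Week 3 diet values changed sign as follows. miR-150-5p was 0.031 with RLE factors, 0.000159 with no filter, 0.073 with a mean CPM of at least 10, 0.031 by DESeq2 and 0.045 with the replicate block. miR-142a-3p was 0.033 with that CPM filter and 0.038 with the replicate block. With library totals alone, miR-142a-5p was -0.048, miR-155-5p -0.081 and miR-342-3p -0.10. By limma-voom miR-155-5p was -0.012 and miR-342-3p -0.068. Without the muscle-high libraries they were -0.18 and -0.068. Without the 3 low libraries miR-142a-5p was -0.18, miR-155-5p -0.19 and miR-342-3p -0.19, and the diet effect of miR-342-5p at week 3 minus week 1 was -0.068. For week 1 against day 1 on the control diet, miR-142a-3p was 0.057 with totals alone, 0.0084 with TMM without muscle and erythrocyte miRNAs, 0.071 by limma-voom and 0.30 without the muscle-high libraries. For week 3 against week 1 on the control diet, miR-342-3p was 0.00090 and miR-342-5p 0.15 without the 3 low libraries. Without them the log2 ratio differences were -0.080 for the miR-142a arms and 0.15 for the miR-150 arms at week 1, and 0.065 for miR-155-5p, 0.17 for miR-342-3p (both over miR-142a-3p) and -0.042 for miR-142a-3p over miR-223-3p at week 3.

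With 1 library left out, sign changes gave these ranges. Diet at day 1: miR-142a-3p -0.0035 to 0.57. Diet at week 3: miR-142a-3p -0.37 to 0.15, miR-142a-5p -0.20 to 0.47, miR-150-5p -0.30 to 0.42, miR-155-5p -0.21 to 0.39, miR-342-3p -0.21 to 0.28 and miR-342-5p -0.59 to 0.030. Week 1 against day 1, control: miR-142a-3p -0.40 to 0.29 and miR-155-5p -0.28 to 0.45. Week 3 against week 1, control: miR-342-5p -0.49 to 0.13. Ratio differences at day 1 were -0.13 to 0.14 (miR-150 arms), -0.11 to 0.13 (miR-342 arms), -0.028 to 0.15 (miR-155-5p over miR-142a-3p) and -0.068 to 0.28 (miR-342-3p over miR-142a-3p). At week 1 they were -0.14 to 0.029 (miR-150 arms), -0.29 to 0.20 (miR-342 arms) and -0.10 to 0.082 (miR-150-5p over miR-142a-3p). At week 3 they were -0.43 to 0.045 (miR-142a arms), -0.24 to 0.17 (miR-150-5p over miR-142a-3p), -0.29 to 0.19 (miR-155-5p over miR-142a-3p), -0.35 to 0.17 (miR-342-3p over miR-142a-3p) and -0.042 to 0.93 (miR-142a-3p over miR-223-3p). These arms lay above the counting floor in every library, since 3 counts were at most 1.48 CPM and the lowest value was 12.0 CPM, for miR-150-3p.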
